A study of Mus musculus with 6 samples.

Results

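The horizontal cell factors described here are 9 genes, Prox1, Onecut1, Onecut2, Onecut3, Lhx1, Esrrb, Sall3, Calb1 and Tmem215, taken by name from a list of regulators and markers of retinal horizontal cells. All 9 were found among the 55487 genes of the deposited count table by the Ensembl identifier that the authors' deposited table pairs with the name, and 9 of 9 passed the filter on low counts that left 17275 tested genes. Bulk RNA was sequenced from retinas of C57BL/6 mouse embryos at embryonic day 16.5, with 3 libraries labelled Foxp1 cKO (Foxp1 fl/fl with Six3-Cre) and 3 labelled control (Foxp1 fl/fl without the Cre). Every animal therefore carried the loxP-flanked Foxp1 alleles, and the Six3-Cre transgene, which places the recombinase under Six3 sequence active in the developing retina, was labelled in the cKO animals alone, so loss of Foxp1 and presence of the Cre cannot be told apart. Both retinas of an embryo were pooled into 1 library, and the embryos were littermates. The series asks how gene expression in the embryonic retina changes when Foxp1, a forkhead transcription factor, is removed.

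Horizontal cells are inhibitory interneurons of the outer retina that receive photoreceptor input and feed back onto photoreceptor terminals. They arise early in retinal development from progenitors in which Foxn4 and Ptf1a direct the horizontal and amacrine fates. Onecut factors and then Prox1 and Lhx1 act in the committed precursors, while calcium-binding proteins such as calbindin mark the more mature cell. None of these genes is exclusive to horizontal cells: Onecut genes are also transcribed in ganglion cells and early cones, and Prox1 in progenitors leaving the cell cycle, some amacrine and bipolar cells, lens fibres and lymphatic endothelium. In a bulk library, fewer cells of a type and less RNA per cell cannot be told apart.

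Depth was 23707761 to 25714620 counts per library, and values are given as CPM, the counts scaled to a library size of 1000000 after TMM normalization, which corrects for differences in composition between libraries. Rax, a progenitor gene of the retina at this age, was present in all libraries, between 531 and 565 CPM. Foxp1 itself went against the labels, with 72.4, 75.5 and 68.8 CPM in libraries 1 to 3 of labelled cKO and 50.8, 41.1 and 46.2 CPM in libraries 1 to 3 of labelled control (log2 fold change 0.65, edgeR adjusted p 4.63e-05). By Xist, which is transcribed in females, libraries 1 to 3 of labelled cKO read as female, female and male, and libraries 1 to 3 of labelled control as female, male and male. The sex matched the label of its own library in 4 of 6 cases, with labelled cKO 2 and labelled control 2 the exceptions, and the label of the equally numbered library of the other genotype in 6 of 6. An exchange of the whole groups would thus match the lower Foxp1 of a knockout, the sexes, and the signs of Foxp1 and the 9 factors in the authors' deposited table, and it would turn every direction below. Whether the labels were exchanged was not tested. The groups are kept as labelled and are called labelled cKO and labelled control.

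Among the 9 factors, Prox1 was the 1 gene that differed between the labelled genotypes, and it fell by 15.3% in labelled cKO. With the groups exchanged, the same difference would read as 18.03% higher in the knockout. The Onecut genes, Lhx1, Esrrb, Sall3, Calb1 and Tmem215 did not pass the test. The background in this comparison was 0.781% of tested genes past an edgeR adjusted p of 0.05, with 0.295% higher and 0.486% lower in labelled cKO. DESeq2 called 6.8% of the 7561 genes to which it gave an adjusted p, and limma-voom 0.0753% of all tested genes. DESeq2 gave no adjusted p to Onecut3, Lhx1, Esrrb, Sall3, Calb1 or Tmem215. Here and below, a gene without a DESeq2 adjusted p counts as not called by it. An unadjusted edgeR p under 0.05 was found for 16.5% of tested genes and for 1 of the 9 factors. Of the 9 factors, 6 had a log2 fold change below 0 and 3 above, with a median of -0.15, against 49.9% of all tested genes below 0 and a median over all tested genes of 0.0007. The groups of CPM values did not overlap for 3 factors, Prox1, Lhx1 and Esrrb, all with labelled cKO below, where 9.3% of tested genes had this pattern. In either direction, 20.1% of tested genes had groups apart.

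**Figure D1:**
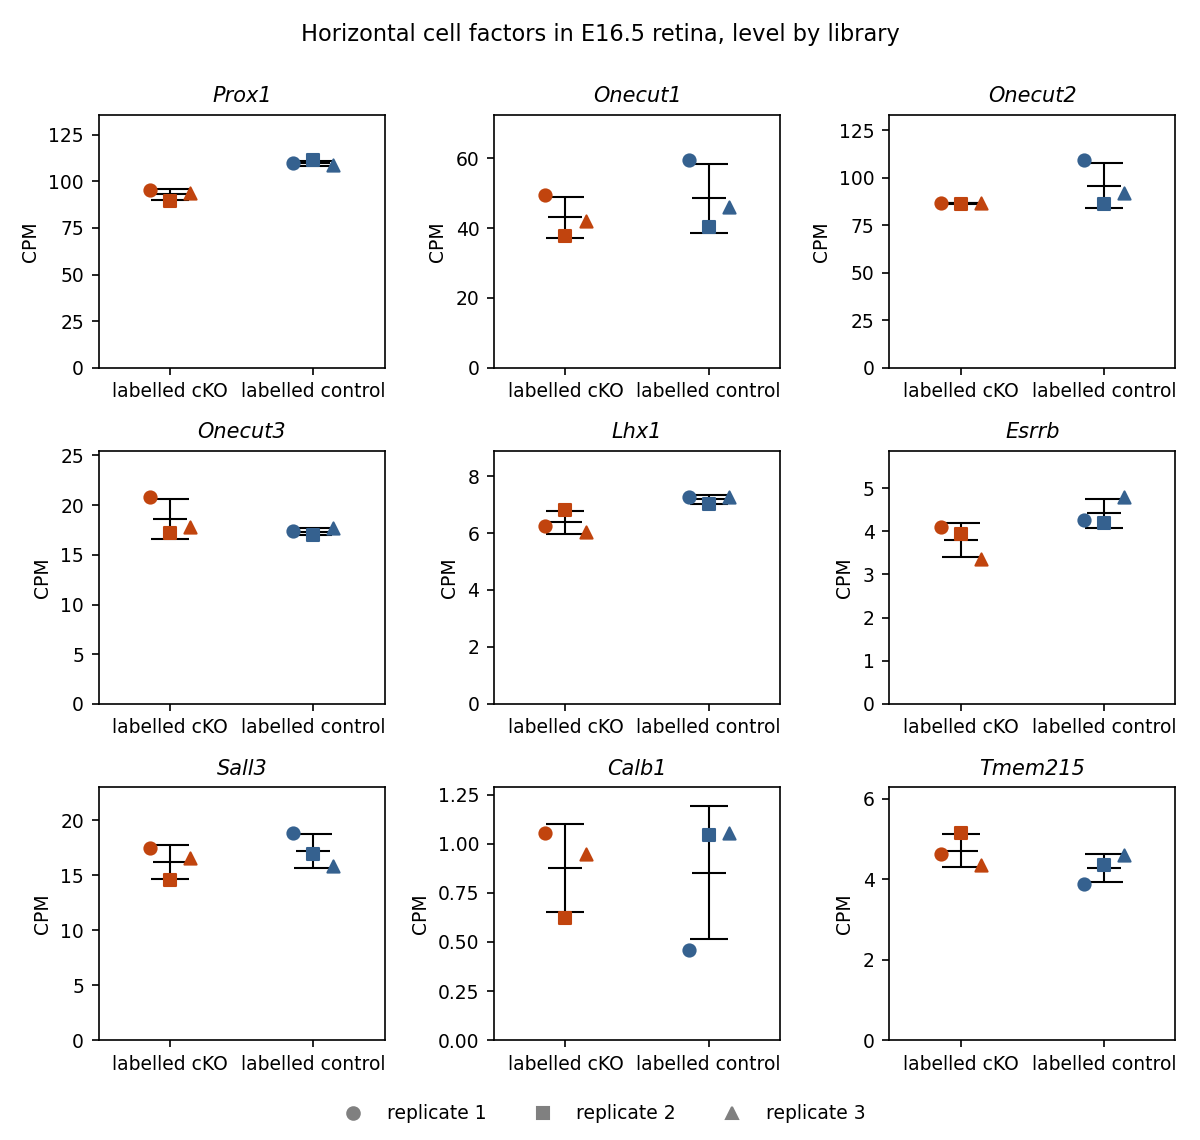
CPM of each horizontal cell factor (vertical axis, from 0) in the 3 libraries labelled cKO (left, orange) and the 3 labelled control (right, blue); symbols mark replicates 1 to 3, and the bar and whiskers are the mean and SD of each group. The Prox1 points of labelled cKO lie between 89.6 and 95.6 CPM, below the labelled control points at 108.6 to 111.3 CPM, while the Onecut groups overlap.

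Prox1, the homeodomain factor that promotes horizontal cell fate in the mouse (ENSMUSG00000010175, chromosome 1, 190118035 to 190170714, minus strand, mm10), had 95.6, 89.6 and 93.9 CPM in libraries 1 to 3 of labelled cKO. It had 109.7, 111.3 and 108.6 CPM in libraries 1 to 3 of labelled control. Every library labelled cKO was thus below every library labelled control, and the distance between the groups exceeded the spread within either. The means were 93.1 ± 3.12 CPM in labelled cKO and 109.8 ± 1.37 CPM in labelled control (SD, n = 3 each), and the log2 fold change was -0.24 ± 0.04 (SE; edgeR adjusted p 0.0172). The raw counts behind them were 2444, 2155 and 2379 in labelled cKO and 2622, 2762 and 2575 in labelled control. By p-value Prox1 ranked 18 of the 17275 tested genes, whereas the size of its change ranked lower, at the percentile 82.5 of absolute log2 fold changes. Its SD of log2 CPM within groups, 0.037, was at the percentile 9.95 among 10431 genes with a mean of at least 10 CPM. Prox1 was thus one of the steadier genes of this set, which also holds genes of lower level than Prox1.

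The direction for Prox1 held in all 18 alternative settings, and the call held in 11 of them. Among the 11 was the labelled sex as covariate (edgeR adjusted p 0.018), although Xist goes against that label in 2 libraries. The sex read from Xist was not fitted as a covariate. The edgeR adjusted p was 0.112 without library 2 of labelled control, 0.201 without library 2 of labelled cKO and 0.099 without library 3 of labelled cKO. It was 0.714 without the 2 libraries with mismatched sex genes, with a log2 fold change of -0.20. Longer exons went with lower fold changes (Spearman rho -0.27 over all tested genes, which share the 6 libraries and are not replicates), and Prox1 has 8390 bases of summed exons against a median of 3922 over tested genes. After removal of each library's length trend, the Prox1 log2 fold change was -0.19 (standard error 0.04, edgeR adjusted p 0.0542).

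**Figure D2:**
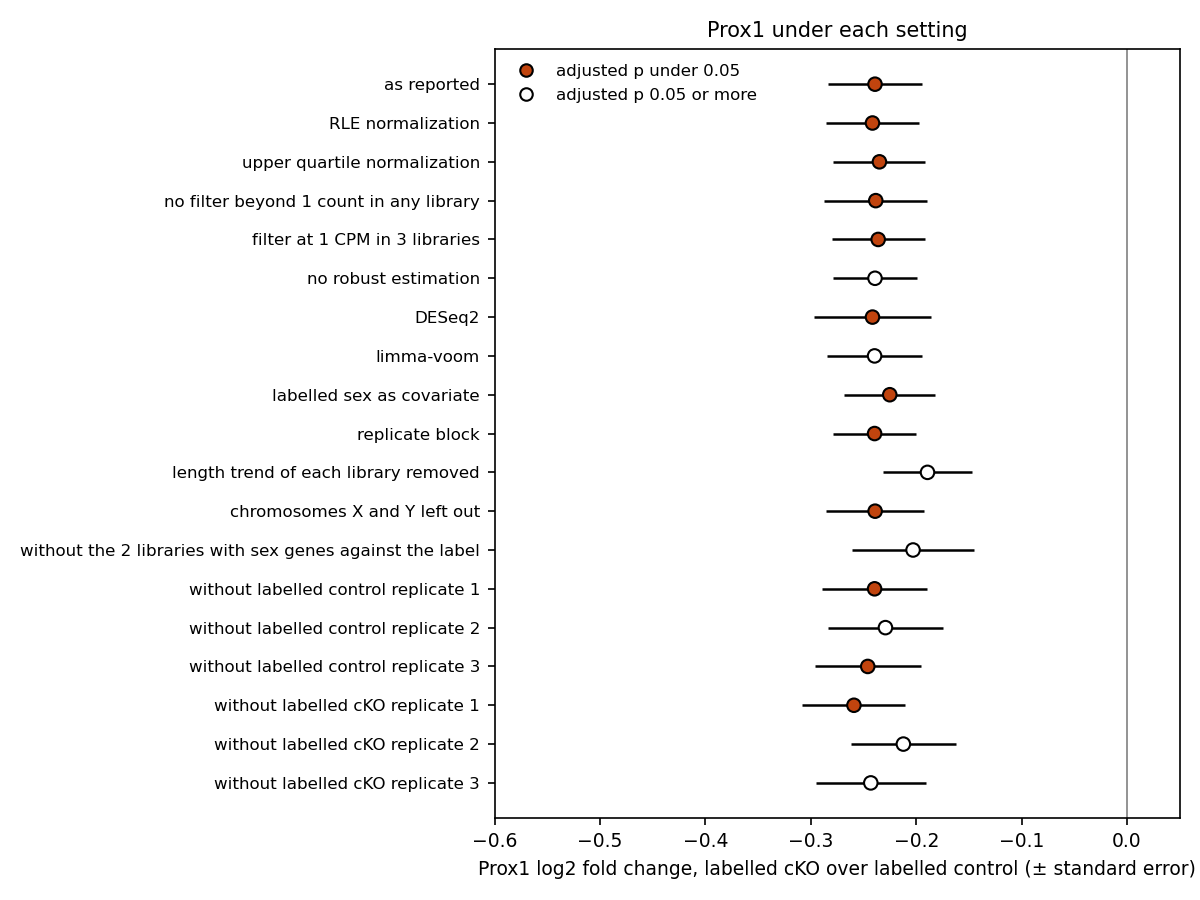
Log2 fold change of Prox1, labelled cKO over labelled control (horizontal axis, whiskers are ± 1 standard error), as reported and under each of the 18 alternative settings (vertical axis); filled points have an adjusted p under 0.05. All points lie between -0.26 and -0.19, and 7 of the 18 alternatives are open.

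Prox1 is also transcribed in lens fibres, and lens transcripts differed widely between the libraries. The 16 lens genes summed to 66.2, 25.0 and 274 CPM in libraries 1 to 3 of labelled cKO, against 69.0, 272 and 967 CPM in libraries 1 to 3 of labelled control. All 12 tested lens genes lay below 0 (median log2 fold change -1.77), and 0 passed by edgeR or limma-voom, with 0 at an unadjusted p under 0.05. DESeq2 also called 0, with genes that lack its adjusted p counted as not called. Within labelled control, Prox1 stayed between 108.6 and 111.3 CPM while the lens sum spanned 69.0 to 967 CPM. In labelled cKO, library 2 had the lowest lens sum, 25.0 CPM, and the lowest Prox1, 89.6 CPM. Library 3 had the highest lens sum of labelled cKO, 274 CPM, and Prox1 at 93.9 CPM. Library 1 of labelled cKO and library 1 of labelled control had nearly the same lens sum and Prox1 at 95.6 and 109.7 CPM. The part of lens cells in the Prox1 difference was not tested. The lens genes Crygs, Lim2, Foxe3 and Lgsn were below the filter, and Lgsn was at 0 in 5 libraries.

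**Figure D3:**
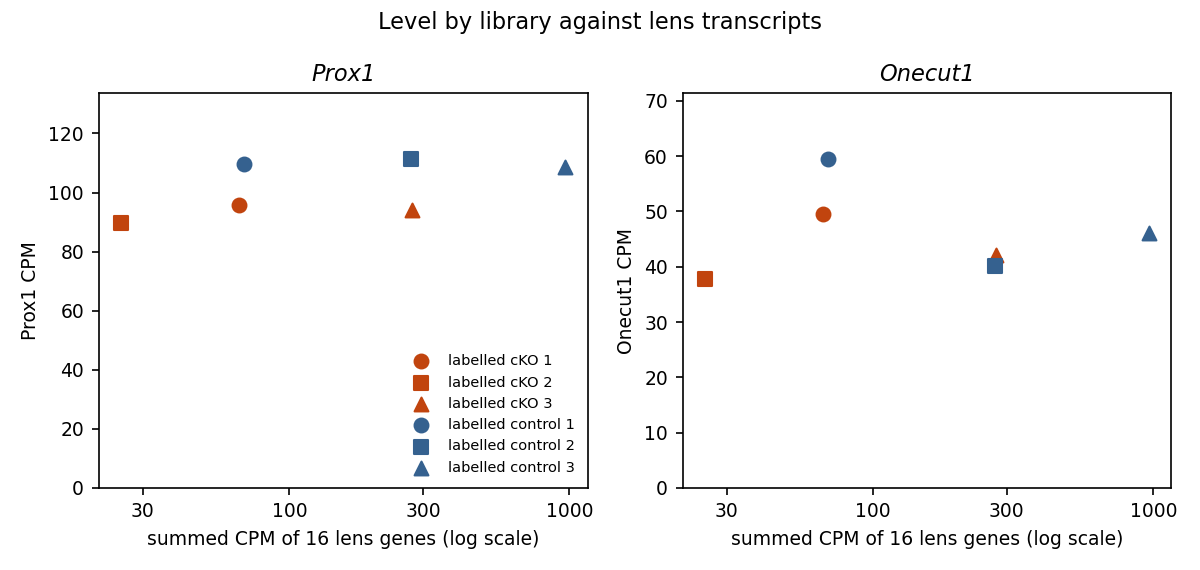
CPM of Prox1 (left) and Onecut1 (right) on the vertical axis, from 0, against the summed CPM of 16 lens genes on a log axis, for each library; colours are labelled genotypes and symbols replicates. The 3 labelled control points for Prox1 lie between 108.6 and 111.3 CPM across lens sums of 69.0 to 967 CPM. The 3 labelled cKO points lie between 89.6 and 95.6 CPM across lens sums of 25.0 to 274 CPM.

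Lymphatic endothelium, another site of Prox1, was barely represented. Flt4, the receptor for lymphatic growth factors, was between 0.118 and 0.665 CPM in labelled cKO and between 0.443 and 0.544 CPM in labelled control. Lyve1 was at most 0.632 CPM in labelled cKO and 0.837 CPM in labelled control, and Ccl21a had 0 counts in all libraries. Pdpn, which other cells of the eye also transcribe, made up nearly all of the list's sum of 37.8 to 40.7 CPM in labelled cKO and 34.7 to 37.7 CPM in labelled control. None of these genes passed (0 of 3 tested by edgeR or limma-voom, 1 of 3 at an unadjusted p under 0.05). DESeq2 also called 0, which says little here, since genes without its adjusted p count as not called.

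An antisense transcript, Prox1os, overlaps Prox1 on the opposite strand, and without the counting settings the reads of both cannot be fully separated. Prox1os had 44, 36 and 35 counts in labelled cKO and 56, 47 and 49 counts in labelled control, which is small beside the counts of Prox1. It differed by -0.45 ± 0.23 on the log2 scale (SE; edgeR adjusted p 0.333). A second antisense gene there, Gm28172, had 7 or fewer counts per library.

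RefSeq (GRCm38.p6) gives Prox1 a pair of start sites, and their promoter windows, 250 bases before to 50 bases after the start, are shown because Prox1 is the factor that changed and the targeted gene encodes a forkhead protein. They are read 5′ to 3′ on the minus strand, and capitals mark the forkhead core motif TGTTTA, searched on both strands together with the Onecut core motif ATTGAT.
Prox1 start 1, chr1:190170778-190171077: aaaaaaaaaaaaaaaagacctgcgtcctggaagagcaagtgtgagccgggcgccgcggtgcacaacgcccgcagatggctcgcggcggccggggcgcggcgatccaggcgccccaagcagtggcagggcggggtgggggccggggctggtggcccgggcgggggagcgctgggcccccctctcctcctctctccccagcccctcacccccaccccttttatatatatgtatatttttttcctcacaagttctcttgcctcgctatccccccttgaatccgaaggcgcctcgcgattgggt
Prox1 start 2, chr1:190169466-190169765: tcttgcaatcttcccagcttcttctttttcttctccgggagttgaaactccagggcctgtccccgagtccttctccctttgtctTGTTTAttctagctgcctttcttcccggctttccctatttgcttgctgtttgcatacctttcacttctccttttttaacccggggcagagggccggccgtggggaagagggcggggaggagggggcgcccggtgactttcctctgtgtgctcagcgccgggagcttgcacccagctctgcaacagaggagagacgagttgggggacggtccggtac
The second window held 1 match to the forkhead core, beginning 166 bases before the start, and the first held none. Of 32851 RefSeq promoter windows of 300 bases, 13.4% held this motif and 7.54% the Onecut core. Windows were found for 5 of the 9 factors, 8 windows in all, and 1 of them (12.5%) held the forkhead core and 0 the Onecut core.

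The genes whose profile over the 6 libraries was most like that of Prox1, by the root-mean-square difference of centred log2 CPM among 13840 protein-coding genes, were Dscam, Scn9a and Cdk5rap2. Since likeness was the rule of choice, fold changes near that of Prox1 follow from it. Dscam, a cell adhesion molecule of retinal neurons, differed from the Prox1 profile by 0.0175 and was at 47.7 ± 1.56 CPM in labelled cKO and 56.1 ± 1.77 CPM in labelled control (SD, n = 3 each). Its log2 fold change was -0.23 (edgeR adjusted p 0.0467). The Dscam and Cdk5rap2 calls each held in 7 of the 18 alternatives and were lost without library 1 (adjusted p 0.152 and 0.15) or library 2 (0.174 and 0.157) of labelled control, and without library 2 (0.364 for both) or library 3 (0.131 and 0.138) of labelled cKO. Scn9a, a voltage-gated sodium channel subunit, was at a difference of 0.0258 and its log2 fold change was -0.22 (edgeR adjusted p 0.105). Cdk5rap2, a centrosomal protein, was at a difference of 0.0269 and its log2 fold change was -0.20 (edgeR adjusted p 0.0467), or -0.11 with the length trend removed (0.285).

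The 3 Onecut genes encode transcription factors with a cut domain and a homeodomain. Onecut1 and Onecut2 are needed for horizontal cell genesis in the mouse. None of the 3 passed between the labelled genotypes, and their fold changes were not in 1 direction: Onecut1 and Onecut2 were below 0 and Onecut3 above.

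Onecut1 (ENSMUSG00000043013, chromosome 9, 74861921 to 74891781, plus strand) had 49.5, 37.7 and 42.2 CPM in libraries 1 to 3 of labelled cKO, against 59.5, 40.2 and 46.0 CPM in libraries 1 to 3 of labelled control. The groups overlapped, and the library numbered 1 was the highest of each group. The log2 fold change was -0.17 with a 95% interval of -0.69 to 0.35 (edgeR adjusted p 0.752), and it was 0.0013 without library 1 of labelled control. Onecut1 varied more between replicates than nearly all genes with a mean of at least 10 CPM. Its coefficient of variation was 13.8% in labelled cKO and 20.3% in labelled control where counting alone gives 2.98%, and its SD of log2 CPM within groups, 0.243, was at the percentile 99.0 among genes with a mean of at least 10 CPM, whose median was 0.070.

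Chosen after its spread was seen, the profile of Onecut1 was compared with other genes in the same way as that of Prox1. The nearest were Atn1, Kcnd2 and 4930518I15Rik, at root-mean-square differences of 0.0592, 0.0616 and 0.0694. Atn1, a transcriptional corepressor, had 24.3, 20.5 and 21.9 CPM in libraries 1 to 3 of labelled cKO and 29.5, 21.9 and 24.1 CPM in libraries 1 to 3 of labelled control. It was highest in the library numbered 1 of each group, which follows from its choice by likeness to Onecut1.

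Onecut2 (ENSMUSG00000045991, chromosome 18, 64340020 to 64400987, plus strand) had 86.5, 86.2 and 86.8 CPM in labelled cKO. The coefficient of variation there was 0.331%, where counting alone gives 2.115%, so this closeness cannot be read as steadiness of the gene. Labelled control had 109.1, 86.1 and 92.0 CPM, so the groups overlapped and library 1 of labelled control stood highest, as for Onecut1. The log2 fold change was -0.15 ± 0.07 (SE; edgeR adjusted p 0.351). It was -0.04 without library 1 of labelled control. With 16234 bases of exon Onecut2 was the longest of the 9 genes, and with the length trend removed its log2 fold change was -0.02 (edgeR adjusted p 0.91).

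Onecut3 (ENSMUSG00000045518, chromosome 10, 80494835 to 80517276, plus strand) had 20.9, 17.2 and 17.8 CPM in labelled cKO and 17.4, 17.0 and 17.7 CPM in labelled control. Library 1 of labelled cKO was highest and the other 5 lay close together. The log2 fold change was 0.10 with a 95% interval of -0.07 to 0.28 (edgeR adjusted p 0.607), and 0.01 without library 1 of labelled cKO.

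Per length, as CPM per kb of summed exon, the 3 Onecut levels added to 21.7, 18.1 and 19.3 in libraries 1 to 3 of labelled cKO and to 24.8, 18.6 and 20.6 in libraries 1 to 3 of labelled control. Onecut1 held the largest part of this sum in all 6 libraries, with 55.4%, 50.7% and 53.1% in labelled cKO and 58.3%, 52.5% and 54.4% in labelled control. Onecut3 held 20.1%, 19.9% and 19.3% in labelled cKO and 14.7%, 19.1% and 18.02% in labelled control, groups that did not overlap, although library 1 of labelled control stood apart from the others. No test was run on these shares.

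Shared sequence between the 3 paralogues was short beside the read length of 150 bases. The longest run of identical bases was 26 between Onecut1 and Onecut2 transcripts and 38 between Onecut2 and Onecut3 in the GENCODE M21 annotation. The longest of all was 50 bases of coding sequence between Onecut1 (chr9:74863341-74863390) and Onecut3 (chr10:80496130-80496179), both on the plus strand of mm10. It is shown because it is where a read could least be told between these paralogues.
Onecut1 and Onecut3: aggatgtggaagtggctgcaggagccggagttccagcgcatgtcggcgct

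Lhx1, the LIM-homeodomain factor that places horizontal cells in their layer in the mouse (ENSMUSG00000018698, chromosome 11, 84518284 to 84525535, minus strand), had 6.26, 6.82 and 6.04 CPM in labelled cKO and 7.28, 7.01 and 7.25 CPM in labelled control. All libraries labelled cKO were below all those labelled control, yet the gene did not pass. Its means were 6.37 ± 0.40 CPM in labelled cKO and 7.18 ± 0.148 CPM in labelled control (SD, n = 3 each), with a log2 fold change of -0.17, a 95% interval of -0.42 to 0.08 and an edgeR adjusted p of 0.521. Counts of 153 to 164 in labelled cKO and 172 to 174 in labelled control gave a counting error alone of 7.76%, which limits what can be seen at this level.

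Esrrb, an orphan nuclear receptor of the estrogen-related family (ENSMUSG00000021255, chromosome 12, 86361117 to 86521628, plus strand), had 4.11, 3.95 and 3.36 CPM in labelled cKO and 4.27, 4.19 and 4.81 CPM in labelled control. The groups lay side by side without overlap, separated by less than the spread within either. The log2 fold change of -0.22 had a 95% interval of -0.54 to 0.11 (edgeR adjusted p 0.533).

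Sall3, a zinc finger factor of the Spalt family needed for horizontal cell maturation in the mouse (ENSMUSG00000024565, chromosome 18, 80966376 to 80986771, minus strand), had 17.5, 14.6 and 16.6 CPM in labelled cKO and 18.9, 17.0 and 15.8 CPM in labelled control. The groups overlapped, at -0.09 ± 0.09 on the log2 scale (SE; edgeR adjusted p 0.701).

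The last pair are markers rather than regulators. Calb1, which encodes the calcium-binding protein calbindin of mature horizontal cells (ENSMUSG00000028222, chromosome 4, 15881264 to 15908064, plus strand), had 27, 15 and 24 counts in labelled cKO and 11, 26 and 25 counts in labelled control. At 0.876 ± 0.225 CPM in labelled cKO and 0.854 ± 0.341 CPM in labelled control (SD, n = 3 each) it was near the lower limit of the tested genes, and its log2 fold change of 0.04 had a 95% interval of -0.71 to 0.79 (edgeR adjusted p 0.9745). This interval leaves smaller differences in Calb1 unresolved. Its coefficient of variation was 25.7% in labelled cKO and 39.9% in labelled control, where counting alone gives 21.65%. Tmem215, a transmembrane protein gene (ENSMUSG00000046593, chromosome 4, 40472180 to 40477168, plus strand), had 4.62, 5.16 and 4.34 CPM in labelled cKO and 3.89, 4.35 and 4.60 CPM in labelled control. The groups overlapped, with a log2 fold change of 0.14 and a 95% interval of -0.17 to 0.44 (edgeR adjusted p 0.716).

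**Figure D4:**
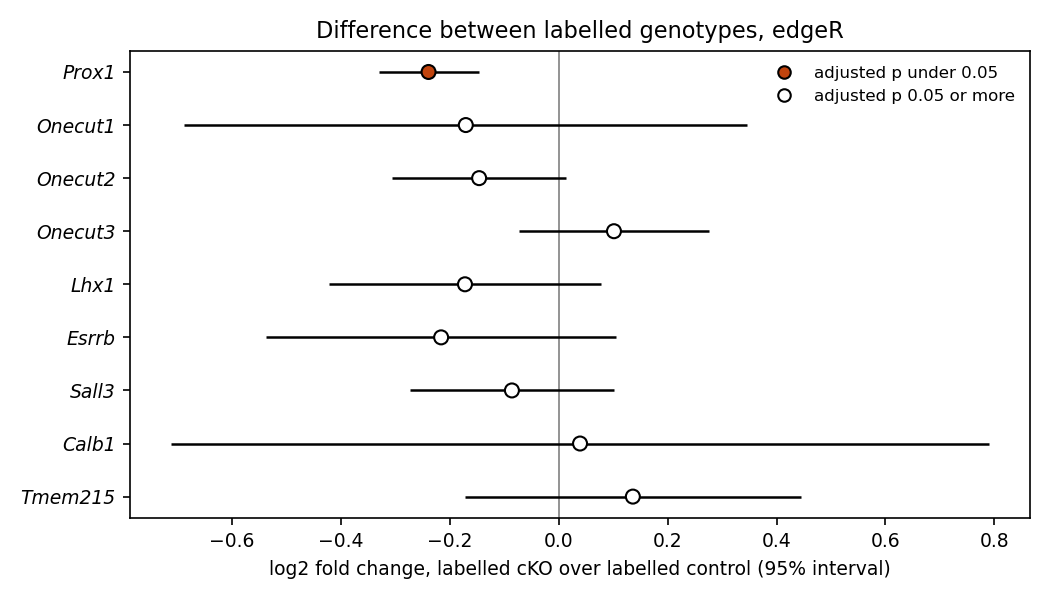
Log2 fold change of the 9 horizontal cell factors (vertical axis), labelled cKO over labelled control (horizontal axis), with 95% intervals from the edgeR fit. The Prox1 interval, -0.33 to -0.15, lies below 0 and the other 8 include 0, with Calb1 and Onecut1 the widest.

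Per length, the order of levels ran from Prox1 at 12.1 ± 1.13 CPM per kb through Onecut1 (11.1 ± 1.91), Onecut2 (5.61 ± 0.561) and Onecut3 (3.76 ± 0.303) to Sall3 (2.23 ± 0.197), Lhx1 (1.66 ± 0.127), Tmem215 (0.948 ± 0.088), Esrrb (0.68 ± 0.078) and Calb1 (0.178 ± 0.053) (SD over 6 libraries). Prox1 and Onecut1 could not be ordered, since their ranges overlapped and Prox1 was the higher in 4 of 6 libraries. Each other neighbouring pair was in the same order in 6 of 6 libraries with ranges that did not overlap. These levels divide by the summed exons of the annotation, which may be longer than the transcripts in use.

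**Figure D5:**
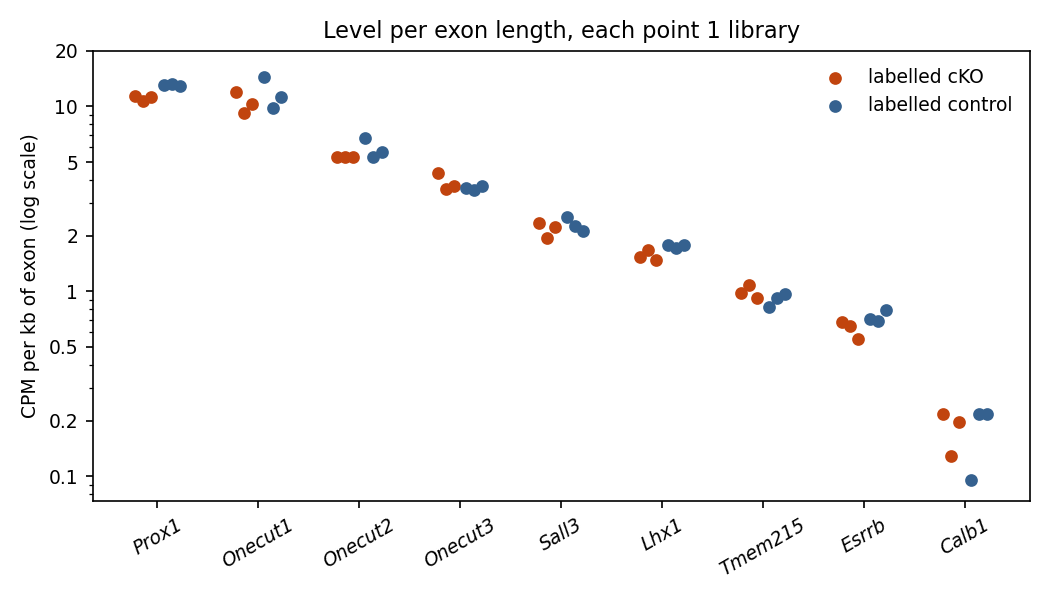
CPM per kb of summed exon (vertical axis, log scale) of each factor (horizontal axis, in order of mean level), 1 point per library, labelled cKO left and labelled control right. Neighbours from Onecut1 to Calb1 do not overlap, and Prox1 overlaps with Onecut1.

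The genes that act with these factors in horizontal and amacrine genesis were taken as a list of 10, of which 10 were tested. By edgeR, 1 was higher and 1 lower in labelled cKO, with 4 at an unadjusted p under 0.05, 4 by DESeq2 and 0 by limma-voom, and the groups did not overlap for 4 of the 10, against 20.1% of all tested genes. Foxn4, the forkhead factor that makes progenitors competent for both fates, had 278, 262 and 262 CPM in labelled cKO and 266, 253 and 270 CPM in labelled control (log2 fold change 0.03, edgeR adjusted p 0.865). Ptf1a, the bHLH factor downstream of it, had 36.4, 34.4 and 35.3 CPM in labelled cKO and 34.02, 33.0 and 39.3 CPM in labelled control (log2 fold change -0.0021, edgeR adjusted p 0.992). Neither gene upstream of the horizontal fate thus showed groups that were apart.

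The 2 called genes were Tfap2b and Atoh7. Tfap2b, an AP-2 factor of horizontal and amacrine cells, fell to 179, 178 and 180.0 CPM in labelled cKO, against 215, 227 and 197 CPM in labelled control (log2 fold change -0.25, edgeR adjusted p 0.0329). Atoh7, the proneural bHLH factor whose lineage includes ganglion and horizontal cells, was higher, at 545, 551 and 504 CPM in labelled cKO and 437, 407 and 459 CPM in labelled control (log2 fold change 0.30, edgeR adjusted p 0.0182). Tfap2b no longer passed without library 1 (edgeR adjusted p 0.0756) or library 2 (0.172) of labelled control and without library 2 (0.272) or library 3 (0.118) of labelled cKO. Atoh7 no longer passed without library 2 of labelled control (edgeR adjusted p 0.144) or library 2 of labelled cKO (0.229). Neither call held without both libraries with mismatched sex genes (0.714 for each), with the length trend removed (0.0532 for Tfap2b and 0.0598 for Atoh7), by limma-voom (0.107 and 0.0906) or without robust estimation (0.121 and 0.114). Tfap2a, the AP-2 paralogue, had 74.3, 74.3 and 80.0 CPM in labelled cKO and 86.0, 88.2 and 85.4 CPM in labelled control and lay just above the threshold (log2 fold change -0.18, edgeR adjusted p 0.0582).

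Of 12 effector genes of horizontal cells and other inhibitory interneurons, 11 were tested and 0 passed by edgeR, with 2 at an unadjusted p under 0.05, 1 by DESeq2 and 0 by limma-voom. The median log2 fold change was -0.08. Slc32a1, the vesicular transporter for inhibitory transmitters, had 24.6, 24.1 and 27.1 CPM in labelled cKO and 24.8, 29.2 and 28.9 CPM in labelled control. Stmn2, a microtubule regulator of differentiating neurons at large, had the highest level of the list, with 504, 535 and 495 CPM in labelled cKO and 437, 456 and 470 CPM in labelled control (log2 fold change 0.17, edgeR adjusted p 0.102). Calb2, the calretinin gene, had 69.1, 70.2 and 68.0 CPM in labelled cKO and 68.2, 73.8 and 76.7 CPM in labelled control. Gad2, a GABA-synthesising enzyme, had 61.3, 61.7 and 60.0 CPM in labelled cKO and 56.8, 61.9 and 55.9 CPM in labelled control. Gad1, the other such enzyme, had 4.81, 5.03 and 6.91 CPM in labelled cKO and 7.32, 6.93 and 7.25 CPM in labelled control. Its log2 fold change was -0.36 (edgeR adjusted p 0.1955). Of the 11 tested genes, the groups did not overlap for 1 below, Gad1, and 1 above, Stmn2, against 20.1% of all tested genes in either direction. Gja10, the connexin of horizontal cell gap junctions, was below the filter and not tested, with 7, 14 and 12 counts in labelled cKO and 1, 6 and 2 counts in labelled control, so its few reads were more numerous in labelled cKO and the CPM groups did not overlap.

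Markers of cells that share these factors gave the following sums. Ganglion cell genes, 12 of 12 tested, summed to 2379 to 2592 CPM in labelled cKO and 2384 to 2476 CPM in labelled control, and 0 passed by edgeR, DESeq2 or limma-voom, with 3 at an unadjusted p under 0.05. Cone and photoreceptor precursor genes, 7 of 7 tested, summed to 804 to 861 CPM in labelled cKO and 849 to 879.7 CPM in labelled control, with 0 past by edgeR or limma-voom, 1 by DESeq2 and 2 at an unadjusted p under 0.05. Amacrine genes, 9 of 10 tested, summed to 1096 to 1151 CPM in labelled cKO and 1162 to 1176 CPM in labelled control, and 1 passed by edgeR, Tfap2b, with 2 by DESeq2, 0 by limma-voom and 4 at an unadjusted p under 0.05. The sums did not overlap with Tfap2b included. Without it they were 924, 918 and 970.5 CPM in labelled cKO and 961, 934 and 968 CPM in labelled control, which overlap. Pax6, also a progenitor gene, made up most of these sums and was at -0.0011 on the log2 scale. Of the 9 amacrine genes tested, Tfap2b included, 8 had a log2 fold change below 0. For 4 the groups did not overlap, all with labelled cKO below, a pattern of 9.3% of tested genes, while 20.1% were apart in either direction. The 4 amacrine genes were Tfap2a, Tfap2b, Gad1 and Tfap2c (log2 fold change -0.31, edgeR adjusted p 0.102). The part of amacrine cells in the Prox1 difference was not tested. Progenitor genes, 10 of 10 tested, summed to 7597 to 7936 CPM in labelled cKO and 7800 to 7952 CPM in labelled control, which overlap. Of these genes 0 passed by edgeR or limma-voom and 2 by DESeq2, with 4 at an unadjusted p under 0.05. Among them, and named after their values were seen, the groups did not overlap for Sox9, with 192, 170.5 and 164 CPM in labelled cKO and 212, 194 and 203 CPM in labelled control (log2 fold change -0.21, edgeR adjusted p 0.0739). Hes1 and Six6 were apart in the other direction, at 0.16 and 0.11 on the log2 scale (edgeR adjusted p 0.111 and 0.263). Thus 1 of the 10 was apart below and 2 above, against 20.1% of all tested genes apart in either direction.

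In the authors' deposited table of cKO against control, Prox1 is at 0.24 ± 0.06 on the log2 scale (SE, adjusted p 0.00696). The sign is opposite to that from the counts with the labels, as it is for 9 of the 9 factors. The authors' deposited table lists no adjusted p for 6 of them, and gives Onecut2 0.19 (adjusted p 0.0939) and Onecut1 0.24 (adjusted p 0.482). Foxp1 is at -0.60 in the authors' deposited table (adjusted p 6.02e-11).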

How the data were processed

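Raw read counts per gene were deposited by the authors as whole numbers, per the file headers. The authors' deposited comparison table holds, per the file headers, a mean normalized count (signal), the log2 fold change and its error, the Wald score, and each p-value before and after adjustment. Tools named in the submitters' processing notes are STAR 2.7.6a, cutadapt 2.8, DESeq2 1.32.0 and featureCounts 1.5.1, and the build is mm10. Whether counting used strand is not given in the sources used here.

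Count columns carry the sample descriptions of the labels. Genes passing filterByExpr were tested with edgeR 4.0.16 (R 4.3.3; TMM, genotype alone, robust quasi-likelihood, Benjamini-Hochberg over 17275 genes, threshold 0.05). Standard errors were derived as the absolute log2 fold change over the root of F. Replicates are separate littermates and chi-square values over degrees of freedom were 7.39 to 12.5 for pairs of replicates, so none was a duplicate. Positions and exon lengths are from GENCODE M21. The functions were tested on simulated data. The 9 factors and the other lists were chosen with earlier results of these data known. From the genesis and effector lists, called genes or else up to 3 with the highest CPM are named, and marker lists are given as sums. Foxn4, Ptf1a, Tfap2a, Slc32a1, Gad1, Gja10 and single markers of lens, endothelium, amacrine cells and progenitors were named after their values were seen. Likeness to Prox1 used log2 of CPM plus 0.5. The alternatives, in 18 settings, changed normalization, filter, tool (DESeq2 1.42.0, limma 3.58.1), covariates, length trend, chromosomes and libraries.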

Additional observations from a re-analysis of the deposited data

How the results depend on the processing

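Over the 18 alternatives, the sign of the log2 fold change was kept for Prox1, Onecut2, Onecut3, Lhx1, Esrrb, Sall3 and Tmem215. The cause of the changes below was not tested. With single libraries left out, Onecut1 ranged from -0.29 to 0.0013, Calb1 from -0.26 to 0.23, Ptf1a from -0.0511 to 0.0804 and Foxn4 from -0.0024 to 0.0463. Ptf1a, at -0.0021 as reported, was 0.0021 with upper quartile normalization, 0.0011 with a filter at 1 CPM, 0.0031 with limma-voom and 6e-04 with the replicate block, and Foxn4 was -0.0042 with the length trend removed. The count of factors past the threshold, 1 as reported, was 0 without robust estimation, with limma-voom, with the length trend removed and without the 2 libraries with mismatched sex genes, and 0 to 1 with single libraries left out. The Prox1 adjusted p was then 0.06, 0.0974, 0.0542 and 0.714 in the first 4 of these settings. All tested genes past the threshold, 135 as reported, numbered 742 with no filter beyond 1 count, 83 with a filter at 1 CPM, 10 without robust estimation, 514 by DESeq2, 13 by limma-voom, 38 with the length trend removed and 9 without the 2 libraries, and 19 to 778 with single libraries left out. Same-numbered libraries deviated together for numbers 1 and 3 (correlations 0.118 and 0.246) but not for number 2 (-0.0616). Libraries of different numbers gave -0.269 to 0.202. Deviations from a mean of 3 libraries depend on each other, so these correlations cannot decide whether the numbers pair the samples. With the replicate number as a replicate block, 1065 genes passed, among them 1 of the factors, Prox1 (log2 fold change -0.24, edgeR adjusted p 0.00506), and Onecut1 came to -0.16 (edgeR adjusted p 0.0764). Depth limits Calb1, Esrrb, Tmem215 and Lhx1, whose counting errors per library were 21.6%, 9.96%, 9.52% and 7.76%.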

Other observations

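Kdr, the vascular endothelial growth factor receptor 2, had by far the highest level of the blood endothelium list. It had 283, 283 and 291 CPM in libraries 1 to 3 of labelled cKO and 321, 335 and 311 CPM in libraries 1 to 3 of labelled control. In the same libraries Pecam1 was between 0.237 and 1.13 CPM in labelled cKO and between 0.544 and 0.632 CPM in labelled control, and Cdh5 was below 1 CPM in all 6. Cldn5, a tight junction gene, had 12.8, 13.2 and 13.7 CPM in labelled cKO and 13.9, 16.8 and 15.01 CPM in labelled control (log2 fold change -0.20, edgeR adjusted p 0.266). Kdr did not pass between the labelled genotypes as reported (log2 fold change -0.17, edgeR adjusted p 0.0911), but it passed in 3 of the 18 alternatives, by DESeq2 (0.011), with the replicate block (0.021) and without library 3 of labelled control (0.0443). The groups did not overlap for Kdr or Cldn5, both with labelled cKO below, a pattern of 9.3% of tested genes. In either direction, 20.1% of tested genes had groups apart. Of the 4 tested genes of the list, 2 had a log2 fold change below 0 and 2 above. Those above were Pecam1 at 0.08 and Cdh5 at 0.20, both of low level and with groups that overlapped.

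Pigment epithelium genes differed between single libraries more than between the labelled genotypes. Pmel, a melanosome protein gene, had 59.5, 21.7 and 18.8 CPM in libraries 1 to 3 of labelled cKO and 41.7, 60.2 and 38.1 CPM in libraries 1 to 3 of labelled control. The 6 genes of the list summed to 31.3 to 94.8 CPM in labelled cKO and 57.8 to 96.7 CPM in labelled control. Of these, 0 of 6 passed by edgeR or limma-voom, with 0 at an unadjusted p under 0.05. DESeq2 also called 0, with genes that lack its adjusted p counted as not called.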
